A study of Homo sapiens with 24 samples.

Results

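The transcripts of 10 SR splicing factors, SRSF1 to SRSF8, SRSF10 and SRSF11, were described in m6A-seq peak lists of human pluripotent stem cells and their pancreatic derivatives. Every peak that names 1 of these genes in its gene field was taken, which gave 149 of 228472 peaks over 6 lists. Of these, 137 lay inside the SR gene and were described. The other 12 reached past it, in gene units that the peak caller had joined, and 11 of them lay on exons of L3MBTL1, downstream of SRSF6, or of the Ensembl genes ENSG00000264112 and ENSG00000266086 near SRSF1. This restriction was set after the values had been seen.

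In m6A-seq, RNA fragments are precipitated with an antibody against N6-methyladenosine (IP) and sequenced together with unprecipitated fragments (input). A stretch with more IP reads than the input predicts is called as a peak. The cells were the embryonic stem cell line MEL1, which carries GFP in 1 INS allele and was grown on CF1 feeder cells, as undifferentiated hPSC, as definitive endoderm (DE), as pancreatic progenitors (PP) and as human islet-like organoids (hILO). In a second experiment, wild-type PP (WT PP) were compared with PP of MEL1 cells in which exon 1 of the m6A demethylase ALKBH5 had been cut by CRISPR-Cpf1 (A5-KO PP). The knockout colonies were picked and expanded, and the labels do not say which colony gave these libraries. The first 4 populations form batch 1 of the labels, with mRNA and a SYSY antibody, and the last 2 form batch 2, with total RNA, a Millipore antibody, rRNA-depleted input and another library kit. Batch and experiment therefore cannot be told apart, and the 4 stages were compared among themselves and WT PP with A5-KO PP. Each population had 2 IP and 2 input libraries, and 1 list of peaks was called on them together, so no comparison has a replicate check and no p-value across populations was computed.

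SR proteins carry RNA recognition motifs and a domain rich in arginine and serine (RS domain), bind exons of pre-mRNA and help the spliceosome choose splice sites. Their RS domains are phosphorylated by the SRPK and CLK kinases. Many SR genes limit their own output by splicing in an exon with a premature stop codon, often called a poison exon, and such transcripts are targets of nonsense-mediated decay (NMD). The nuclear m6A reader YTHDC1 is known to bind SRSF3 and SRSF10.

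Peaks of 1 gene from all lists that shared exonic bases were joined into sites, numbered along the transcript, which gave 45 sites. Short stretches of the sites that recur below are shown on the transcript strand, from the GRCh38 reference, with the letters of a DRACH match (the consensus around methylated adenosine, in which D excludes C, R is a purine and H excludes G) in capitals. The first 6 belong to sites found in every list, and each stretch lies in bases shared by the peaks of its site.
SRSF4 site 4, coding sequence, chr1:29148826-29148854, minus strand: cagcaagagcaaGGACAagaggaagggca
SRSF5 site 8, 3′UTR, chr14:69771606-69771634, plus strand: ctttgtagatgtGGACCaccaaggggttg
SRSF8 site 6, 3′UTR, chr11:95070743-95070771, plus strand: agtgttggaaatGGACAtaaatagacata
SRSF10 site 6, 3′UTR of the longest isoform, chr1:23967473-23967496, minus strand: cattttaGGACAaataaaaggaaa
SRSF11 site 3, exon of an isoform without a defined coding sequence, chr1:70247118-70247146, plus strand: gtatatttgaagTAACAtggaattcaaga
SRSF11 site 5, coding sequence, chr1:70250452-70250480, plus strand: agataaggaaaaGGACCgggaaagaaaat
The next 2 belong to sites that lay wholly outside the protein-coding isoforms, on exons of isoforms annotated for NMD or with a retained intron.
SRSF3 site 3, chr6:36600252-36600280, plus strand: tctagcttgttgAAACCcaaaactagtaa
SRSF10 site 1, chr1:23978088-23978116, minus strand: aagctggaagaaGGACAagcctaatggga
The last belongs to the SRSF6 site that spans the stop codon.
SRSF6 site 3, chr20:43461082-43461110, plus strand: cacattattatgGAACActttcctactta

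The positions of the peaks and the read counts beside them could not be used alike. In the order of the peak numbers, neighbouring peaks of the same gene had like input reads in some stretches of each list, with r from 0.42 to 0.55 for the log2 input reads, while neighbours of different genes had r from 0.02 to 0.09. In other stretches both kinds of neighbours were alike to nearly the same degree, with r from 0.30 to 0.38 and from 0.29 to 0.35. There the jumps in reads matched the changes of gene best when the reads were moved by 1 or more rows against the positions, and in 93.9% (A5-KO PP) or more of such rows the shift had the same direction. In a list, the stretches in step held 1719 to 9380 neighbours of the same gene and 1291 to 5541 of different genes, and the displaced ones 1090 to 7520 and 1071 to 8391. The stretches were found from these same reads, so the correlations within them follow in part from the choice. In blocks of rows set without regard to the reads, r for neighbours of the same and of different genes was 0.57 and 0.07 in rows 8001 to 10000 of hPSC. In rows 6001 to 8000 it was 0.29 and 0.34. Rows of a list share its depth, and the correlations carry no test. Of the 137 SR gene peaks, 41 lay in stretches that were in step, 22 in stretches that were displaced and 74 in stretches where the shift could not be determined. The shift was 1 row for SRSF1 and SRSF2 in PP, for example, and 8 rows for SRSF5 in hPSC. Reads, enrichment and p on a row that was not in step may be those of another peak, and the cause was not tested. The presence and position of peaks depend on these columns only through the authors' threshold, and 90.5% (WT PP) to 99.9% (hPSC) of the peak numbers up to the highest were listed. Results below therefore rest on positions, and enrichment is compared between rows in step.

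**Figure D1:**
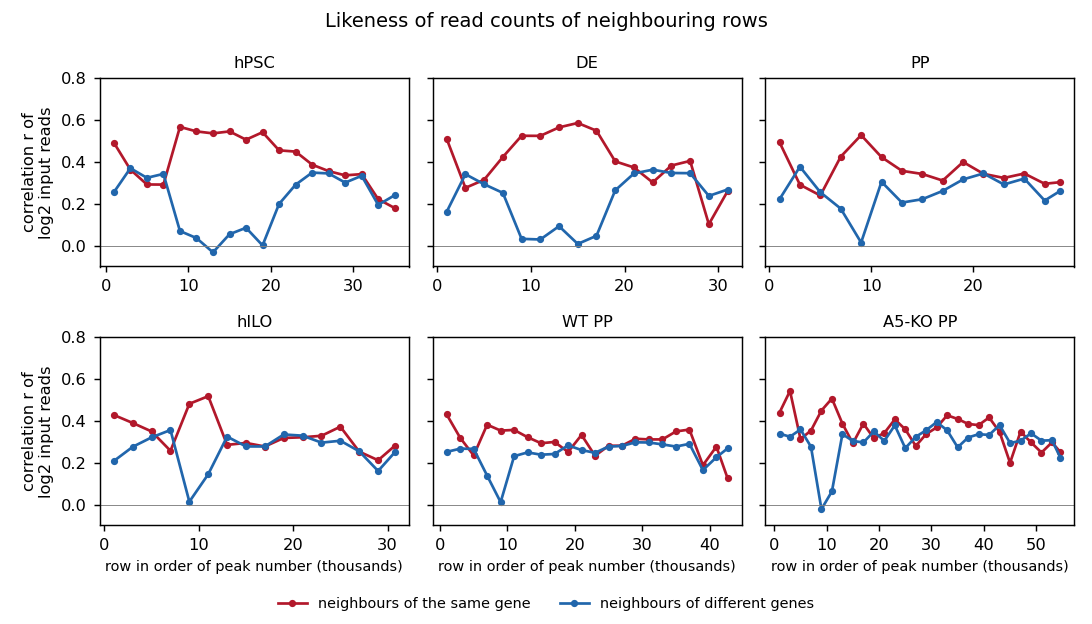
Correlation r of log2 input reads between neighbouring rows of each peak list, in blocks of 2000 rows ordered by peak number, for neighbours of the same gene (red) and of different genes (blue). The 2 lines stand apart in some stretches, such as rows 8001 to 20000 of hPSC, and run together in others.

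Of the stages, hPSC had 20 SR gene peaks, DE 21, PP 23 and hILO 29, while WT PP had 25 and A5-KO PP 19. The whole lists held 36659 peaks (hPSC), 32680 (DE), 29083 (PP), 31519 (hILO), 43312 (WT PP) and 55219 (A5-KO PP), so the list with the fewest SR gene peaks was the longest. The order of the lists depended on the threshold. With an IP/input ratio of at least 3, hILO had the fewest SR gene peaks (8), and with p below 1e-10 A5-KO PP had 7 and hILO 18. At least 1 peak was found in 8 of the 10 genes in hPSC (against 56.9% of all coding genes), 8 genes in DE (53.7%), 10 genes in PP (48.7%) and 9 genes in hILO (54.1%). WT PP had peaks in 8 genes (59.7%) and A5-KO PP in 6 (66.5%). SRSF4, SRSF5, SRSF8, SRSF10 and SRSF11 had peaks in each of the 6 lists, with 2 to 5 peaks a list. SRSF1 had 1 or 2 peaks in each list but hPSC. SRSF6 had 1 to 4 peaks in 5 lists and none in A5-KO PP.

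SRSF2, SRSF3 and SRSF7 had peaks in 2 to 4 lists. SRSF2, whose protein binds exonic enhancers, had 1 peak in PP, in the 3′UTR, and 1 in WT PP, in the 5′UTR, and the 2 did not overlap. SRSF3, the smallest of the SR proteins, had 2 peaks in hPSC and 3 each in DE, PP and hILO, but none in WT PP or A5-KO PP. SRSF7, close to SRSF3 in sequence and with a zinc knuckle, had 1 peak in hPSC, PP and hILO, over the first exon. SRSF3 and SRSF7 thus had peaks in batch 1 and none in batch 2, where antibody, RNA and library kit differed.

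Of the 45 sites, 7 were found in all 6 lists and 12 in all 4 stages, while 16 were found in 1 list. Over the 88196 sites of all genes, joined in the same way, the shares were 9.38%, 13.3% and 53.5%, against 15.6% (7.75 to 28.8), 26.7% (16 to 41.0) and 35.6% (23.2 to 50.2) of the SR gene sites. Input reads per peak were also higher in the SR genes in each list (median 85 to 555, against 33 to 302 over all peaks, on rows that may not be in step), and their part in this was not tested. With p below 1e-10, 2 sites were in all 6 lists and 5 in all 4 stages. The 7 were site 4 of SRSF4, site 8 of SRSF5, site 6 of SRSF8, site 6 of SRSF10 and sites 3, 4 and 5 of SRSF11. A further 4 sites were found in 5 lists, namely SRSF1 site 3 (not in hPSC), SRSF4 site 5 (not in hILO), SRSF6 site 3 (not in A5-KO PP) and SRSF8 site 2 (not in WT PP). Peaks were joined in chains, so not all peaks of a site overlap. At SRSF1 site 3 the DE peak (58003506 to 58003580) shared no base with those of WT PP and A5-KO PP, both from 58003581. At SRSF8 site 5 the WT PP peak, from 95070047, shared none with those of DE and PP. Of the sites in 1 list, 6 were in hILO, 5 in WT PP, 2 in A5-KO PP and 1 each in hPSC, DE and PP. Of the 47141 such sites of all genes, 9.84% were in hILO, 23.7% in WT PP, 43.8% in A5-KO PP, 10.3% in hPSC, 6.41% in DE and 6% in PP. The stages alone held 17 of the 45 SR gene sites (37.8%, 25.1 to 52.4, against 26.4% over all genes) and batch 2 alone held 9 (20%, 10.9 to 33.8, against 42.5%).

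SRSF4, a larger SR protein with a long RS domain at its C-terminal end, had a broad site 4 in exon 6, the last exon of its longest isoform. Its peaks were 575 nt long in hPSC and DE, with 525 nt for PP, 650 nt for hILO, 600 nt for WT PP and 500 nt for A5-KO PP, and it ended 106 nt before the stop codon. The bases common to its 6 peaks (500 nt) held 9 DRACH matches, of which 1 was the GGAC printed above. Site 5 began 20 nt after the stop codon, in the 3′UTR.

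SRSF11, an SR-related protein found with U2AF at the 3′ splice site, had 3 neighbouring sites in every list. Sites 3, 4 and 5 lay over exons 7 to 9, 10, and 11 to 12 of the longest isoform, from 727 nt before to 226 nt after the first base of the stop codon. The peaks of site 5 spanned 525 to 650 exonic nt in each list and covered the stop codon of 4 coding isoforms. Sites 3, 4 and 5 also held 178, 133 and 89 nt that belong to exons outside the protein-coding isoforms, so reads of several isoforms may enter these peaks.

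In SRSF5, SRSF6 and SRSF8 a site found in 5 or 6 lists spanned the stop codon. SRSF5 site 8 ran from 110 nt before to 214 nt after the first base of the stop codon and was 250 to 325 nt long. SRSF6 site 3 ran from 129 nt before to 270 nt after it, and its peaks were 200 nt (hPSC), 275 nt (DE), 300 nt (PP), 400 nt (hILO) and 325 nt (WT PP). SRSF8, whose longest coding isoform has 1 exon, had site 2 from 101 nt before to 598 nt after the stop codon, and site 6 further down its 3′UTR, 2249 to 3023 nt after the stop codon.

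SRSF1 and SRSF10 carried their most frequent site far from the main stop codon. SRSF1 site 3 lay in the 3′UTR, 1503 to 1902 nt after the stop codon, with peaks of 75 nt (DE), 100 nt (PP), 375 nt (hILO), 325 nt (WT PP) and 300 nt (A5-KO PP). SRSF10 site 6 lay 3298 to 3747 nt after the stop codon of the longest isoform, and covered the stop codons of 3 other coding isoforms. It was covered by 1 peak in DE (400 nt), PP (175 nt) and hILO (425 nt), and by 2 peaks in hPSC, WT PP and A5-KO PP, which together came to 400, 400 and 350 nt.

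**Figure D2:**
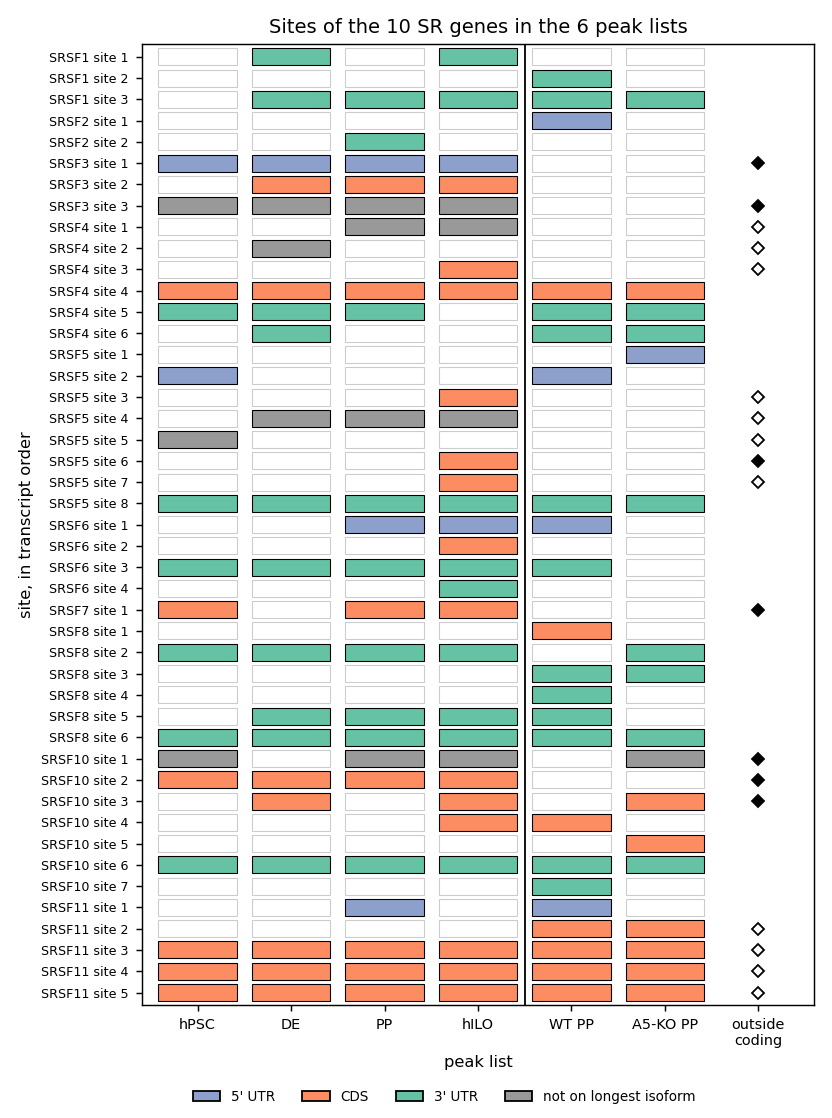
Presence (filled) of each of the 45 sites (rows, in transcript order) in the 6 peak lists, coloured by the region of the site's peak with most IP reads on the longest coding isoform. Diamonds mark sites over exon bases outside the protein-coding isoforms, black where an NMD isoform holds them, and 7 sites are filled in every list.

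Over the 6 lists together, a smaller share of SR gene peaks than of all peaks lay in coding sequence and a larger share in the 3′UTR. Of 119 peaks whose midpoint lay on the longest coding isoform, 45 (37.8%, Wilson 95% interval 29.6 to 46.8) were in coding sequence, against 52.9% of the peaks of all coding genes. The 3′UTR held 61 (51.3%, 42.4 to 60.1, against 41.1%) and the 5′UTR 13 (10.9%, 6.50 to 17.8, against 5.93%). The lengths of the regions were not taken into account, so these shares do not say whether peaks favour or avoid a region. In the longest isoforms, coding sequence ranged from 786 of 7656 nt (SRSF10) to 1482 of 2300 nt (SRSF4). A stop codon of a coding isoform was covered by 28 of 137 peaks (20.4%, 14.5 to 28.0), against 15.3%, which lies inside the interval. In hILO the share in coding sequence was 54.2% (13 of 24 peaks), close to the 53.6% of all coding genes, while the other 5 lists had 28.0% to 38.9%. These intervals cover counting error only, and a site found in several lists enters several times, so they are too narrow for peaks that are not independent.

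Exons outside the protein-coding isoforms were covered by a larger share of SR gene peaks than of other peaks. Bases that GENCODE assigns only to isoforms without a protein-coding label (NMD, retained intron and others) were touched by 52 of 137 peaks (38.0%, 30.3 to 46.3), against 16% of peaks of all coding genes. Bases of NMD isoforms alone were touched by 22 (16.1%, 10.9 to 23.1), against 3.25%. The SR genes also have more such sequence to cover. Bases outside the coding isoforms made up 34.7% of the exon bases of the 10 genes and 17.6% of the bases under their peaks, against 24.1% and 13.4% over the 15666 coding genes with a peak. For NMD-only bases the shares were 7.47% of exon bases and 6.61% of peak bases in the SR genes, against 3.00% and 2.06%. Such bases thus made up a smaller share of peak sequence than of exon sequence, in the SR genes and in coding genes at large. The 22 peaks on NMD-only bases came from 7 sites in 4 genes, and a site enters again in each list. The intervals of these shares are therefore too narrow. An overlap of 3 nt, as at SRSF10 site 2 in hPSC, was enough to count.

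**Figure D3:**
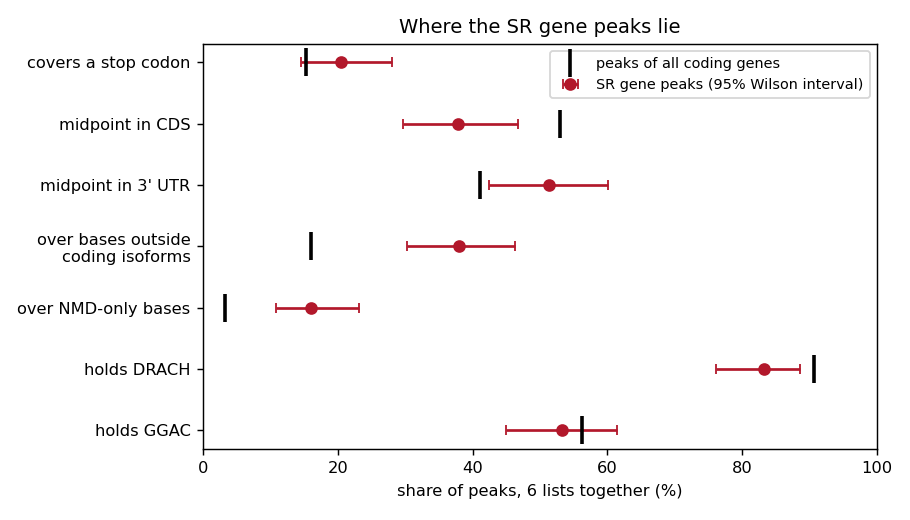
Share of SR gene peaks with each property (red points, with 95% Wilson intervals) and of peaks of all coding genes (black bars), over the 6 lists together. A site found in several lists enters several times, so the intervals are too narrow. The SR gene share is higher at bases outside coding isoforms, 38.0% against 16%, and at NMD-only bases, 16.1% against 3.25%, and lower in coding sequence, 37.8% against 52.9%.

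The bases outside the coding isoforms belonged to 18 sites in 6 genes, namely SRSF3, SRSF4, SRSF5, SRSF7, SRSF10 and SRSF11, and 7 sites in SRSF3, SRSF5, SRSF7 and SRSF10 touched NMD isoforms. SRSF3 site 3 lay on an exon of an NMD isoform (chr6:36599821-36600276), from 281 nt after the premature stop codon on. Its peaks were 75 nt (hPSC), 100 nt (DE), 125 nt (PP) and 200 nt (hILO) long, and neither list of batch 2 had one. The 3′ end of the site ran past that exon, onto bases of other isoforms that are not coding either.

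SRSF10 site 1 lay on an exon of an NMD isoform (chr1:23977911-23978273), 102 to 326 nt after its premature stop codon, and 4 other isoforms that are not coding share these bases. It was found in hPSC (175 nt), PP (225 nt), hILO (225 nt) and A5-KO PP (175 nt), and not in DE or WT PP. Sites 2 and 3 of SRSF10 lay further along the same isoform and also touched coding exons. In SRSF7 the single site held 79 nt of an exon of an NMD isoform, before its premature stop codon, beside coding bases. SRSF4 site 1, in PP and hILO, and site 2, in DE, lay on isoforms that are neither coding nor annotated for NMD.

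Per list, NMD-only bases were touched by 5 of 20 hPSC peaks, 4 of 21 DE peaks, 5 of 23 PP peaks and 6 of 29 hILO peaks, and by 0 of 25 WT PP peaks and 2 of 19 A5-KO PP peaks. The Wilson interval for WT PP reached 13.3%. The 4 stages had 19.0% to 25%, with intervals that began between 7.67% (DE) and 11.2% (hPSC), so they overlap with that of WT PP. Over all coding genes in the 4 stages the share was 3.09%. Bases outside the coding isoforms were touched by 9 of 20 hPSC peaks, 9 of 21 DE peaks, 10 of 23 PP peaks and 14 of 29 hILO peaks, against 15.6% in the 4 stages, and by 4 of 25 WT PP peaks (16%, against 15.2% of peaks of all coding genes) and 6 of 19 A5-KO PP peaks (31.6%, against 17.8%). For NMD-only bases the shares over all coding genes were 3.14% (WT PP) and 3.79% (A5-KO PP). The batches differ in RNA selection, antibody and kit.

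DRACH was found in 114 of 137 SR gene peaks (83.2%, 76.1 to 88.5), against 90.7% of peaks of all coding genes, and GGAC in 73 (53.3%, interval 45% to 61.4%), against 56.2%. Only the transcript strand was searched, and GGAC followed by A, C or T is itself a DRACH match. Inside the bases under peaks GGAC occurred 3.97 times per kb, against 2.05 per kb in the exon bases of the same genes outside peaks, a ratio of 1.93. DRACH occurred 18.4 and 17.8 times per kb, a ratio of 1.04. GGAC was thus more frequent under peaks in these genes, while DRACH as a whole was almost as frequent outside them. The GGAC ratio rests on 42 matches under peaks and 109 outside, and neither ratio was taken over all coding genes. A match says that the letters are present, not that the adenosine was methylated.

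Along differentiation, a peak counted as inherited when over 50% of its exonic length was covered by peaks of the stage before. In DE, 12 of 21 SR gene peaks (57.1%, 36.5 to 75.5) were inherited from hPSC, against 64.7% of all DE peaks. In PP, 15 of 23 (65.2%, 44.9 to 81.2) were inherited from DE, against 56.9%. In hILO, 14 of 29 (48.3%, 31.4 to 65.6) were inherited from PP, against 45.5%. Each background share lay inside the interval of the SR genes. The 6 sites found in hILO alone were in SRSF4, SRSF5 and SRSF6 and included sites 3, 6 and 7 of SRSF5, each of which held bases outside the coding isoforms.

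For enrichment, 7 pairs of SR gene peaks were in step in both hPSC and DE, 6 in DE and PP, and 2 in PP and hILO. No pair differed by 1 or more on the log2 scale. Over all genes, such differences were found in 1.21% (higher) and 1.77% (lower) of pairs in step from hPSC to DE, 1.05% and 2.79% from DE to PP, and 0.546% and 1.4% from PP to hILO. Over all pairs, in step or not, the shares were 4.46% and 6.89%, 7.36% and 8.17%, and 4.16% and 13.2%.

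At SRSF4 site 4 the rows in step held 44092 IP and 2922 input reads (hPSC), 15950 and 4982 (DE), and 14536 and 2295 (PP). The deposited log2 enrichment was 2.37, 1.98 and 1.61. The differences, −0.40 and −0.36, had 95% counting ranges (−0.47 to −0.33 and −0.44 to −0.28) that did not reach 0. With the GC-dependent offset of the peak caller replaced by 1 constant per list, the differences were −0.31 and 0.05, so the direction of the second was not kept. SRSF4 site 5, in the 3′UTR, had a log2 enrichment of 1.41 in hPSC, 1.22 in DE and 1.20 in PP, and these differed by less than the 95% range of the counting error.

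SRSF11 site 5 had the highest enrichment among SR gene rows in step in the stages, with 2.85 in hPSC (22389 IP and 1237 input reads), 2.71 in DE (9000 and 2773) and 2.89 in PP (14321 and 2268). Site 3 had 1.98, 1.85 and 1.80, and site 4 had 1.56, 1.88 and 1.43. From DE to PP, site 4 was lower by 0.45 (range −0.66 to −0.25) and site 5 higher by 0.18 (0.09 to 0.27), which came to 0.03 with a constant offset. The peak of site 4 was 250 nt long in DE and 150 nt in PP, so its difference does not compare the same bases. Site 5 thus lay above sites 3 and 4 in each of these 3 stages.

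SRSF6 had rows in step in all 4 stages. At site 3, around its stop codon, the log2 enrichment was 1.48 in hPSC (4246 IP and 576 input reads), 1.72 in DE (1464 and 821), 1.68 in PP (5363 and 1825) and 1.36 in hILO (6918 and 3237). The difference from hPSC to DE, 0.24 (0.06 to 0.41), was −0.12 with a constant offset. The difference from PP to hILO, −0.33 (−0.43 to −0.23), was 0.22 with a constant offset, so neither direction was kept. Site 1, in the 5′UTR, had 1.00 in PP and 0.98 in hILO. Over the stages, differences at SR gene pairs in step lay between −0.45 and 0.32. With a constant offset they lay between −0.83 (SRSF11 site 4, DE to PP) and 0.62 (SRSF3 site 1, hPSC to DE), and from hPSC to DE SRSF11 sites 3 and 5 moved from −0.13 and −0.14 to −0.78 and −0.55.

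**Figure D4:**
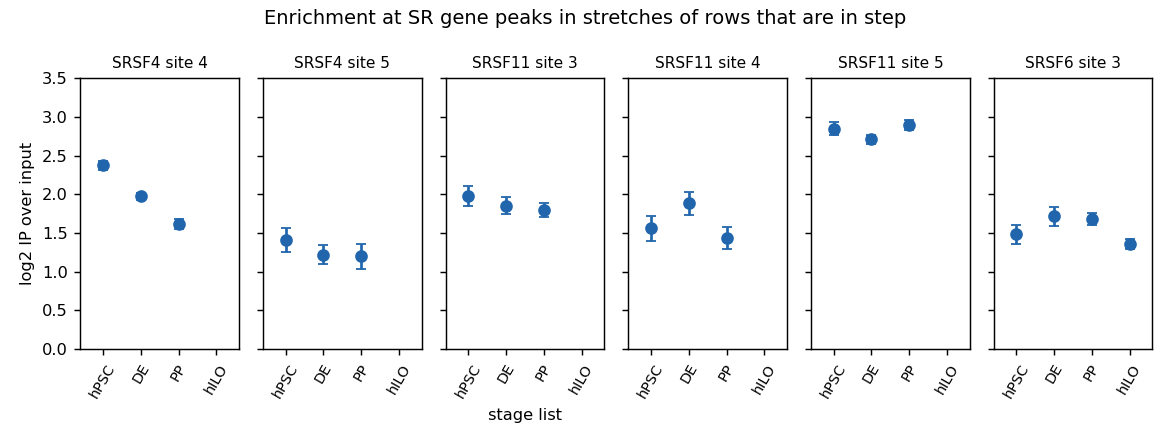
Deposited log2 enrichment of IP over input at 6 sites of SRSF4, SRSF11 and SRSF6 in the stage lists where the rows were in step (points), with the 95% range of the counting error as bars. SRSF11 site 5 lies between 2.71 and 2.89, SRSF4 site 4 falls from 2.37 to 1.61, and a gap means that no peak in step was found in that list.

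Outside SRSF4, SRSF6 and SRSF11, few rows were in step. SRSF1 sites 1 and 3 had a log2 enrichment of 1.51 and 1.76 in DE, SRSF3 sites 1 and 3 had 1.69 and 1.16 in hPSC, SRSF3 site 1 had 1.89 in DE, and SRSF7 site 1 had 1.79 in hPSC. No row of SRSF2, SRSF5, SRSF8 or SRSF10 was in step in any list. The deposited log2 enrichment on their rows ran from 1.36 to 2.33 at SRSF5 site 8, from 1.38 to 3.15 at SRSF8 site 6 and from 1.26 to 2.78 at SRSF10 site 6 over the 4 stages. It was 2.33 at SRSF2 site 2 in PP and 1.57 at site 1 in WT PP, and whether these values belong to the peaks is not known.

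As deposited, with every row taken at its word, the median difference at shared SR gene peaks was 0.11 from hPSC to DE (12 pairs), −0.03 from DE to PP (15 pairs) and −0.57 from PP to hILO (14 pairs), against −0.11, −0.12 and −0.12 over all peaks. With a constant offset the medians were −0.09, −0.21 and −0.44, against −0.05, −0.14 and −0.02, so the direction of the first was not kept. From hPSC to DE 1 pair was higher by at least 1 (4.46% of all pairs were), from DE to PP 0 pairs differed by that much (7.36% higher and 8.17% lower over all pairs), and from PP to hILO 4 were lower (13.2%). Of these, the hILO value of SRSF11 site 5 (1.30, 782 IP and 438 input reads, against 2.89 in PP) was the single one with 50 or more input reads on both rows. Its row in hILO was not in a stretch known to be in step. It was therefore not read as a change of SRSF11.

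The comparison of WT PP with A5-KO PP asked which SR gene sites were present with and without ALKBH5. Of the 28 sites found in either list, 12 were in both (42.9%, 26.5 to 60.9), 11 in WT PP alone (39.3%, 23.6 to 57.6) and 5 in A5-KO PP alone (17.9%, 7.88 to 35.6). Over the 64919 such sites of all genes the shares were 36.6%, 24.4% and 39%. Of 8 SR genes with a peak in WT PP, 6 had fewer peaks in A5-KO PP and 1 had more, and 2 of the 6 had none. SRSF4, with 4 peaks against 3, is counted among the 6 because 2 peaks covered its site 6 in WT PP, and its 3 sites were in both lists. Over 11762 coding genes with a WT PP peak, 39.5% had fewer, 32.5% more and 9.17% none. With 8 genes and 1 list per genotype, a difference between the SR genes and these shares was not tested.

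The genes with a peak in WT PP and none in A5-KO PP were SRSF2, with 1 site, and SRSF6, with sites 1 and 3, while SRSF3 and SRSF7 had none in either list. SRSF10 had 4 peaks in WT PP against 5 in A5-KO PP, where sites 1, 3 and 5 were found and sites 4 and 7 were not. SRSF5 site 2 and SRSF8 sites 1, 4 and 5 were in WT PP and not in A5-KO PP, and SRSF5 site 1 and SRSF8 site 2 the other way round. The whole A5-KO PP list held more peaks than the WT PP list, over more coding genes, as given above. The median input reads of an SR gene peak were 199 (WT PP) and 85 (A5-KO PP), and of all peaks 80 and 33, on rows that may not be in step. The part of depth in the SR gene counts was not tested.

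Of 19 SR gene peaks in A5-KO PP, 13 (68.4%, 46.0 to 84.6) were covered over 50% by WT PP peaks, against 46.7% of all A5-KO PP peaks, and of 25 in WT PP, 14 (56.0%, 37.1 to 73.3) were covered by A5-KO PP peaks, against 49.9%. SRSF4 sites 4, 5 and 6 and SRSF11 sites 2 to 5 were among the shared ones. No shared SR gene peak was in step in both lists, so no difference in enrichment is given as a result. SRSF4 site 4 had 3.73 in A5-KO PP, on a row in step, and 3.75 in WT PP, on a row that was not determined. SRSF11 site 5 had 5.34 in WT PP, in step, and 5.25 in A5-KO PP, not determined.

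As deposited, 1 of the 13 pairs was higher and 4 were lower by at least 1 in A5-KO PP, against 38.2% and 28.8% of all 25795 pairs. Those with at least 50 input reads were SRSF4 site 6 (5.25 against 3.33), SRSF8 site 3 (2.91 against 6.15) and SRSF1 site 3 (3.20 against 4.41). The other of the 2 WT PP peaks at SRSF4 site 6 had 4.35, which differs from 5.25 by less than 1. With a constant offset the differences were 1.68 (SRSF4 site 6), −3.18 (SRSF8 site 3) and −0.87 (SRSF1 site 3). Among pairs of all genes in step in both lists the shares were 17.5% and 19.5%. A difference of this size was thus common between these lists, and each of the 3 SR pairs had at least 1 row not known to be in step.

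PP and WT PP are the same stage in the 2 batches and show how far the lists agree without a change of genotype. Of 23 SR gene sites in PP, 13 were also in WT PP, 10 were not, and WT PP had 10 more. Among the 13 was SRSF8 site 5, whose PP and WT PP peaks shared no base. Of 23 SR gene peaks in PP, 47.8% were covered by WT PP peaks, against 57.8% of all PP peaks, which lies inside the interval (29.2 to 67.0). In the other direction, 11 of 25 SR gene peaks in WT PP (44%, 26.7 to 62.9) were covered by PP peaks, against 22.4% of all WT PP peaks, which lies outside it. At the 5 SR pairs in step in both lists, in SRSF11 and SRSF6, WT PP exceeded PP by 1.13 to 3.93 in log2 enrichment. Over the 160 such pairs of all genes it was higher in 150, with a median difference of 2.12. Levels of enrichment were therefore not compared between batches.

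The other splicing genes with which SR proteins work were read from a list of 56. Of these, 50 had a peak in hPSC (172 peaks), 51 in DE (182 peaks) and in PP (169 peaks) and 53 in hILO (220 peaks), while WT PP had 150 peaks in 45 genes and A5-KO PP 127 peaks in 42 genes. Among the kinases of SR proteins, CLK3 had 4 to 7 peaks a list and SRPK1 had 3 or 4, while CLK1 and CLK4 had none in batch 2. The SR-related co-activators SON, a nuclear speckle scaffold, and SRRM2 had 11 to 16 and 9 to 20 peaks. Among the hnRNPs, which often oppose SR proteins, HNRNPU and HNRNPUL1 had the most peaks over the 6 lists together, with 4 to 15 and 4 to 6 a list. In single lists other hnRNPs could have more. SF1, which binds the branch point, and SF3B1, of the U2 snRNP, had 2 to 4 and 1 to 5. Of the other SR and SR-like genes, SRSF12 had 1 peak in each stage and 4 and 5 in batch 2, and TRA2B had 2 or 3 in each stage, 1 in WT PP but 0 in A5-KO PP. YTHDC1, the nuclear reader, had 6 or 7 peaks in each list.

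The labels were checked by presence of peaks. INS, GCG and SST had peaks in the hILO list alone, PDX1 and NKX6-1 in PP, hILO, WT PP and A5-KO PP, and POU5F1 and NANOG in hPSC and DE, while SOX2 had none. SOX17 had peaks in DE, WT PP and A5-KO PP, FOXA2 in each list but hPSC, CXCR4 in each list, and SOX9 in each list but DE. The hepatic marker ALB had 1 peak in hILO and AFP 1 each in hILO, WT PP and A5-KO PP. VIM, a marker of mesenchymal cells, had 1 peak in PP, hILO and A5-KO PP, and COL1A1 had 1 to 4 in each list. ALKBH5 had 3 to 5 peaks in each list, with 4 for WT PP and 5 for A5-KO PP. Their rows held 836 IP and 289 input reads in WT PP (not determined) and 592 IP and 1 input read in A5-KO PP (displaced), so these may be reads of other peaks, and the level of the ALKBH5 transcript was not checked. Reads inside peaks numbered 30723097 (DE) to 79822815 (hPSC) for IP and 6987612 (PP) to 28463998 (hILO) for input. Stretches of 32 nt that recur elsewhere in the genome made up 26.2% of the peak sequence of SRSF6 and 21.1% of that of SRSF10, 11.0% of SRSF3 and 10.1% of SRSF8, and at most 3.37% in the other SR genes. By site, the share was highest at SRSF6 site 2 (100%), found in hILO alone, SRSF10 site 5 (58%), found in A5-KO PP alone, and SRSF3 site 2 (51.1%). Peaks over such stretches may hold reads of near-identical copies.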

How the data were processed

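Reads had been trimmed (fastp) and mapped to GRCh38 (HISAT2) by the authors, who ran exomePeak2 on the 2 IP and 2 input libraries of a population together. For each peak the authors deposited IP and input read counts pooled over libraries (sum or mean not stated), a log2 enrichment, a p-value and its adjusted form.

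Peak spans were reduced to exons of GENCODE 44 and joined into sites where they overlapped. Sharing required coverage of over 50% of the exonic length, strand included. The counting error took the counts as sums and added 0.5 to each. Rows were called in step, displaced or not determined from windows of 600 rows and shifts of up to 20 rows, tested on simulated data, a step added after the data had been seen. No value was moved between rows. The files held no value per library, so the planned count model was not run. Of each gene, the site in most lists was named, and then single pairs that differed by at least 1 (log2), beyond the 95% counting range and with at least 50 input reads. The members and gene lists were chosen with earlier results of these data known. Alternatives covered thresholds, overlap, offset, motif and row status. Python 3.11.15, pandas 2.3.3 and numpy 2.4.6 were used.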

Additional observations from a re-analysis of the deposited data

How the results depend on the processing

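No paired analysis was possible because each list gives 1 pooled value for all libraries of a population, and for the same reason no replicate could be left out. Of 91 alternative values for 31 results, 62 stayed within 1.5 times a count or inside the interval or counting error of a share or difference, and 29 moved. A turned direction was counted only for median differences of at least 1. No median was that large, so none could be counted. The median from hPSC to DE, 0.11, was −0.093 with a constant offset. The choices of rows in step, of all peaks by the rule and of the 4 stage lists alone were added after seeing the data. Enrichment and p thresholds use columns that may belong to other peaks. With p below 1e-10, hPSC had 12 SR gene peaks, DE 13, PP 14 and hILO 18, WT PP had 13 and A5-KO PP 7, and 5 sites were shared by the 4 stages and 2 by the 6 lists. With an IP/input ratio of at least 3 they numbered 13 in hPSC, 15 in PP and 8 in hILO, and 0% of the hILO peaks that passed were inherited from PP. With at least 50 input reads, A5-KO PP held 12. With any overlap 69.0% of hILO peaks counted as inherited. Between rows in step, the medians of the differences were −0.13 from hPSC to DE and −0.17 from PP to hILO, and the counts of pairs differing by at least 1 fell to 0 in each, while WT PP and A5-KO PP left no pair. Pairs with 50 or more input reads in each list had medians of −0.24 from PP to hILO and −0.082 from WT PP to A5-KO PP. All SR gene pairs, as deposited, had −0.57 and −0.64, where all peaks had −0.12 and 0.25. Among the pairs with 50 or more input reads, 0 were higher in DE, 1 lower in hILO and 2 lower in A5-KO PP. With a constant offset 1 pair was lower in PP than in DE and 1 higher in hILO than in PP. Coding sequence was touched by 52.9% of peaks where any overlap counted. GGAC in place of DRACH was in 53.3% of peaks. At least 50% of the length lay outside coding isoforms in 19.7% of SR gene peaks, against 8.29% of peaks of all coding genes. It lay on NMD-only bases in 8.03%, a share that was not taken over all coding genes. The cause of these shifts was not tested beyond what each alternative itself leaves out.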
